A study of Homo sapiens with 6 samples.

Results

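The genes described here are 9 genes of major histocompatibility complex (MHC) class I antigen presentation, followed in TCam-2 cells that overexpress RBMXL3. They were chosen by name for their role, with earlier results of these data known, and are 9 of the 62700 genes in the deposited gene table. TCam-2 is an established human testicular cancer cell line of the seminoma type. The study compared 3 groups of 2 libraries of polyadenylated RNA: non-transduced TCam-2 cells (WT), TCam-2 cells transduced with GFP_FLAG (GFP), and TCam-2 cells transduced with RBMXL3_FLAG (RBMXL3). WT and GFP are the negative controls of the study, and all 3 groups share the same cell line and culture medium. The labels give neither the promoter of the transgenes nor whether transduced cells are a clone or a pool. They do not say whether the 2 libraries of a group came from separate cultures, so p-values measure the spread between these libraries, which may be technical. With no preparation date in the labels, preparation and group cannot be told apart.

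MHC class I molecules show peptides from inside the cell to cytotoxic T cells and to natural killer cells. A polymorphic heavy chain, such as HLA-B or HLA-C, or the less variable HLA-E pairs with the light chain beta-2-microglobulin (B2M). Peptides are cut by the proteasome, whose interferon-induced subunits include PSMB8, and are carried into the endoplasmic reticulum by the TAP1-TAP2 transporter, where tapasin (TAPBP) helps to load them. NLRC5 is a transcriptional coactivator of class I genes that works through promoter-bound factors, among them NF-Y at CCAAT boxes and RFX5. Germ cell tumours of the seminoma type, like germ cells, are known for low surface class I.

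The total of reads recovered from the gene table was 28604436 to 29318007 in the WT libraries, 23080795 to 26776703 in the GFP libraries and 17685680 to 21023355 in the RBMXL3 libraries, so the RBMXL3 libraries were the shallowest. RBMXL3 itself had 84 and 68 reads in the RBMXL3 libraries and 0 reads in all 4 controls. All 10 seminoma-type markers had reads in every library, but several moved with the groups. In RBMXL3 against WT 2 rose and 3 fell, beside 29.9% of all tested genes called in either direction. Against GFP 2 rose and 2 fell, beside 20.9%, and in GFP against WT 2 fell, beside 3.67%. KIT, a germ cell receptor kinase, fell against WT by 0.80 on the log2 scale (limma adjusted p 0.000159), while POU5F1 and NANOS3 rose by 0.46 and 0.63. Of 10 leukocyte markers, CD3E and MS4A1 were at 0 in all libraries and PTPRC had 1 read in 1 GFP library, while the summed level of the list was 50.0 to 53.7 normalised reads in WT, 55.4 to 64.6 in GFP and 94.1 to 97.8 in RBMXL3. Of 5 fibroblast genes, DCN had at most 2 reads in any library, while the summed level was 8426 to 9640 in WT, 11807 to 13314 in GFP and 12239 to 13067 in RBMXL3. That sum is almost all COL1A2, at 8093 and 9275 in WT. COL1A1, COL1A2 and COL3A1 passed the filter, and all 3 rose in GFP and in RBMXL3 against WT. In RBMXL3 against GFP COL3A1 rose by 1.15 (limma adjusted p 0.000281), while COL1A1 and COL1A2 were not called. PDGFRA did not pass the filter and was lowest in RBMXL3. It was at 11.01 and 5.03 in WT, 12.9 and 16.9 with GFP and 3.86 and 3.21 with RBMXL3. These marker values moved with the groups, and their part in the class I values was not tested.

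The upstream sequences of 4 members are shown because CCAAT boxes stood in HLA-B, HLA-C and B2M and in no other matched member; TAP1 is given as one of the latter. They are the 200 bases before the transcription start in RefSeq (GRCh38.p14), written 5′ to 3′ on the strand of the gene. The RefSeq table held 7 of the 9 members, and HLA-E and NLRC5 were not matched. Capitals mark matches, on either strand, to a CCAAT box (CCAAT), a cyclic AMP response element half-site (TGACG), a core for interferon regulatory factors (AANNGAAA), an interferon-stimulated response element (GAAA, 2 free bases, GAAA) or a kappaB motif (GGG, 2 free bases, TT, 1 free base, CC). Matches may overlap, and every match to the response element also holds an AANNGAAA match.
HLA-B, chr6:31357180-31357379, minus strand: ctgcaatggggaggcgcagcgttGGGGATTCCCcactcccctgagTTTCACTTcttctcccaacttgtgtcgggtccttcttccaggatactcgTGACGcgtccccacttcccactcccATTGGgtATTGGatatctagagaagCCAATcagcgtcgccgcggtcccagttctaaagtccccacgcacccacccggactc
HLA-C, chr6:31272093-31272292, minus strand: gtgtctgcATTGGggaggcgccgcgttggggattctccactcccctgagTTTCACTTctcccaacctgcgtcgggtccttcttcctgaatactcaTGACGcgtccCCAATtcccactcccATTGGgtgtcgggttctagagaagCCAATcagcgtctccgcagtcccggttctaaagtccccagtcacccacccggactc
B2M, chr15:44711317-44711516, plus strand: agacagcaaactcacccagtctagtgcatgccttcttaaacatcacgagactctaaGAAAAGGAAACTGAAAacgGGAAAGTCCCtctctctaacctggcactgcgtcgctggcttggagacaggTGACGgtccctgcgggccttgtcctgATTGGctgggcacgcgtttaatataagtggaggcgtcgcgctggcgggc
TAP1, the first of its listed starts, chr6:32853705-32853904, minus strand: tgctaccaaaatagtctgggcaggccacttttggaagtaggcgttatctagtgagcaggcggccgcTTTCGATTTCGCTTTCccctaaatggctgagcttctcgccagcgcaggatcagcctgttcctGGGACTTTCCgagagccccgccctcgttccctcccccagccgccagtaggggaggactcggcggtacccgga

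The HLA-C window held 4 CCAAT boxes and the HLA-B window held 3, all counted on both strands. The B2M window held 1, and the windows of TAP1, TAP2, TAPBP and PSMB8 held none. Of 35116 promoter windows of the same length, 28.03% held a CCAAT box. The half-site TGACG stood once each in HLA-B, HLA-C, B2M, TAP2 and the first start of PSMB8, against 18.4% of all windows. The longer interferon-stimulated motif was matched 2 times each in B2M, TAP1 and TAPBP and 1 time in TAP2, against 2.40% of all windows, and was not matched in HLA-B or HLA-C. Its shorter core was matched 1 time each in HLA-B and HLA-C, against 16.1% of all windows. A kappaB match stood in HLA-B, B2M, TAP1 and TAPBP, against 4.28% of all windows. These are letter matches in one window and not measured binding sites.

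The 3 heavy chain genes HLA-B, HLA-C and HLA-E were higher in the RBMXL3 libraries than in WT, and the GFP libraries lay between. HLA-B, HLA-C and HLA-E rose against WT by log2 changes of 0.86, 0.40 and 0.53, whereas against GFP none of the 9 members passed the test. B2M, the shared light chain, did not pass it in any comparison. TAP1, NLRC5 and PSMB8 had few reads and did not pass the filter on low values. Without that filter limma called none of these 3 in any comparison. Values below are normalised read counts, which are reads divided by 1 size factor per library. Changes are differences in log2(value + 1) after division of every value by 23.9, and their p-values come from limma with Benjamini-Hochberg adjustment over the 14292 genes that passed a filter on low values. A gene was called where its adjusted p was under 0.05.

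HLA-B (ENSG00000234745.14, chromosome 6, 31269491 to 31357188, minus strand) encodes a classical heavy chain. It had 291 and 326 normalised reads in WT, 450.0 and 449 with GFP and 594 and 565 with RBMXL3. The 3 groups did not overlap, and the means were 309 ± 24.8, 450 ± 0.56 and 579 ± 20.4 (SD, n = 2 each). HLA-B was 1.88 times as high in RBMXL3 as in WT (log2 change 0.86, SE 0.12, limma adjusted p 0.000353). It was already 1.46 times as high in GFP as in WT (log2 change 0.51, limma adjusted p 0.0383), a call that did not hold when any 1 WT or RBMXL3 library was left out (adjusted p 0.0923 to 0.267). The ratio of the RBMXL3 mean to the GFP mean was 1.29 (log2 change 0.35, 95% interval 0.09 to 0.60, limma unadjusted p 0.0111, adjusted p 0.0519), just outside the threshold. Other settings put its adjusted p on both sides: 0.04996 with edgeR, 0.0809 with DESeq2, 0.0739 with quantile scaling, and 0.235 and 0.328 without 1 or the other RBMXL3 library. In these bulk libraries, more cells of a type and more RNA per cell cannot be told apart.

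HLA-C (ENSG00000204525.18, chromosome 6, 31268749 to 31272130, minus strand) encodes another classical heavy chain. It had 2155 and 2085 normalised reads in WT, 2556 and 2432 with GFP and 2751 and 2870 with RBMXL3. The groups stood in the same order as for HLA-B and did not overlap. HLA-C was 1.33 times as high in RBMXL3 as in WT (log2 change 0.40, SE 0.093, limma adjusted p 0.00717), and this call was lost without either RBMXL3 library (adjusted p 0.0742 and 0.133). Against GFP the log2 change was 0.17 (95% interval -0.03 to 0.37, limma adjusted p 0.213). In summed TPM it was 0.36 (limma adjusted p 0.0527), and GFP against WT went from 0.23 to 0.07. The all-gene medians of these 2 comparisons in summed TPM were 0.13 and -0.09.

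HLA-E (ENSG00000204592.9, chromosome 6, 30489467 to 30494205, plus strand) encodes a non-classical heavy chain that is read by the NKG2 receptors of natural killer cells. It had 1696 and 1769 normalised reads in WT, 2164 and 2089 with GFP and 2560 and 2450 with RBMXL3. Again every RBMXL3 library was above every GFP library and every GFP library above every WT library. HLA-E was 1.45 times as high in RBMXL3 as in WT (log2 change 0.53, SE 0.094, limma adjusted p 0.00167). Against GFP the log2 change was 0.23 (95% interval 0.03 to 0.44, limma unadjusted p 0.0274, adjusted p 0.0952). In the length-scaled transcript values this contrast was larger, at 0.50 (limma adjusted p 0.0282), where the median of all genes shifted by 0.13.

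**Figure D1:**
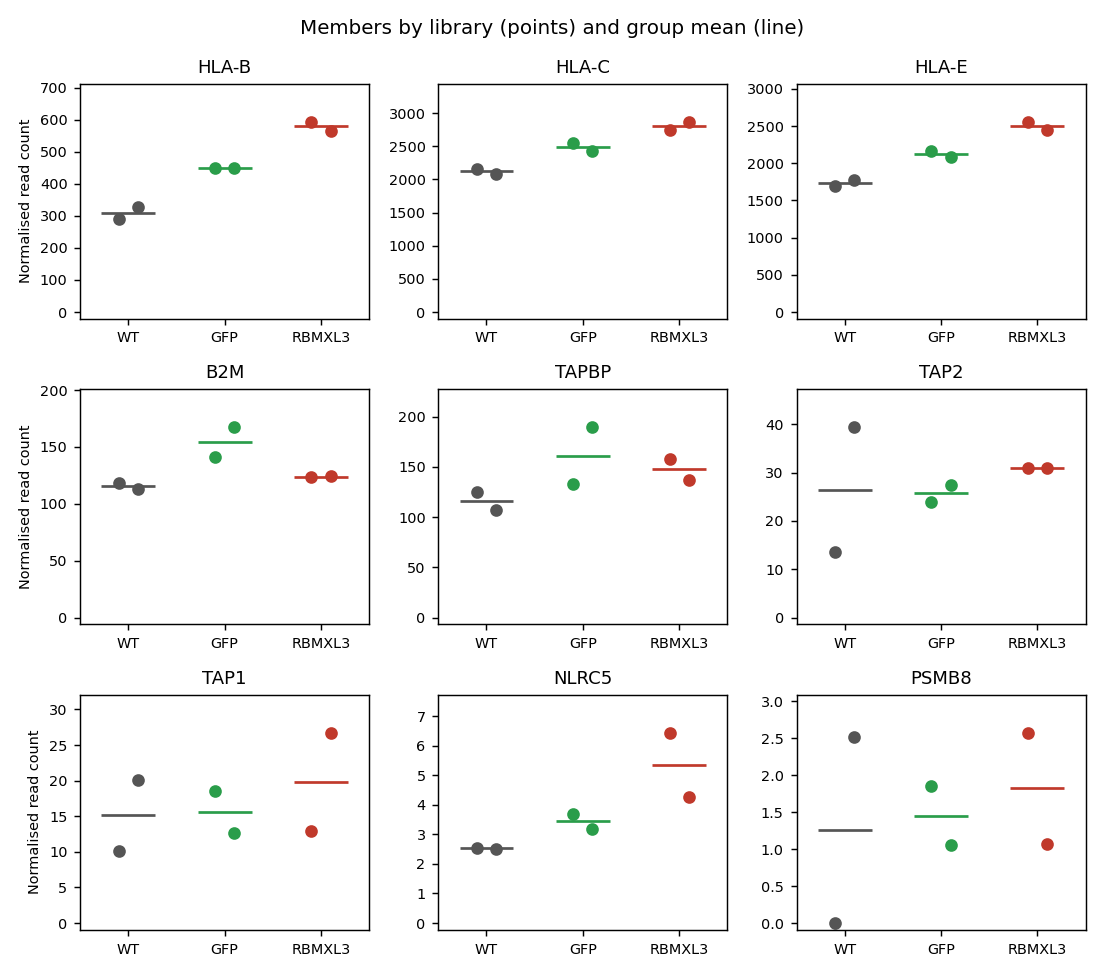
Normalised read count (vertical axis, a separate linear scale per gene) of each of the 9 members in WT, GFP and RBMXL3. Points are the 2 libraries of a group and lines are group means; HLA-B, HLA-C and HLA-E step up from WT to GFP to RBMXL3 without overlap, while B2M is highest in the GFP libraries (141 and 167).

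B2M (ENSG00000166710.23, chromosome 15, 44711487 to 44718877, plus strand), the light chain that every class I heavy chain needs to reach the surface, was not called in any comparison. It had 119 and 113 normalised reads in WT, 141 and 167 with GFP and 124 in both RBMXL3 libraries. The GFP libraries were the highest, and the RBMXL3 libraries lay between WT and GFP. The log2 change was 0.08 against WT (95% interval -0.23 to 0.39, limma adjusted p 0.709) and -0.27 against GFP (95% interval -0.58 to 0.05, limma adjusted p 0.211). These values depended on the scale: in summed TPM they were 0.26 (limma unadjusted p 0.0493, adjusted p 0.158) and -0.07 (adjusted p 0.706). The all-gene medians in summed TPM were 0.03 against WT and 0.13 against GFP. Leaving out 1 GFP library moved the change against GFP to -0.37 or -0.16. No library had more than 158 recovered reads of B2M. Counting error is therefore a larger part of its spread than for HLA-C or HLA-E.

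TAPBP (ENSG00000231925.14, chromosome 6, 33299694 to 33314387, minus strand) encodes tapasin, which bridges class I molecules to the peptide transporter. It had 125 and 107 normalised reads in WT, 133 and 190 with GFP and 158 and 137 with RBMXL3. The second GFP library stood above the other 5, and the GFP and RBMXL3 ranges overlapped. The log2 change was 0.29 against WT (95% interval -0.08 to 0.66, limma adjusted p 0.216) and -0.10 against GFP (limma adjusted p 0.727), and the latter turned to 0.13 without the second GFP library.

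TAP2 (ENSG00000204267.19, chromosome 6, 32821833 to 32838780, minus strand) encodes one of the subunits of the transporter. It had 13.5 and 39.4 normalised reads in WT, 24.0 and 27.5 with GFP and 30.9 and 31.01 with RBMXL3. The WT libraries spanned all others. The log2 change was 0.17 against WT (95% interval -0.32 to 0.66, limma adjusted p 0.595) and 0.14 against GFP (limma adjusted p 0.691), and the former turned to -0.21 without the first WT library. TAP2 shares 36.0% of the 31-base words of its main transcript with an overlapping gene on the same strand, ENSG00000250264, so its level is uncertain.

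TAP1 (ENSG00000168394.13, chromosome 6, 32845209 to 32853978, minus strand), the partner subunit, was represented by 12 and 24 recovered reads in WT, 20 and 12 with GFP and 10 and 25 with RBMXL3. Summed by group these were 36, 32 and 35 reads, with exact 95% Poisson intervals of 25.2 to 49.8, 21.9 to 45.2 and 24.4 to 48.7. The 3 groups overlapped, and a difference was not detectable at this depth. These intervals, like all those from single counts here, cover counting error only.

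PSMB8 (ENSG00000204264.12, chromosome 6, 32840717 to 32844703, minus strand), a catalytic subunit of the immunoproteasome, had 3 reads in each group: 0 and 3 in WT, 2 and 1 with GFP and 2 and 1 with RBMXL3. Each sum has an exact 95% Poisson interval of 0.619 to 8.77 reads. NLRC5 (ENSG00000140853.17, chromosome 16, 56989485 to 57083531, plus strand) had 3 and 3 reads in WT, 4 and 3 with GFP and 5 and 4 with RBMXL3. Scaled to 1000000 recovered reads, the group sums were 0.104 (95% interval 0.0380 to 0.225), 0.140 (0.0564 to 0.289) and 0.233 (0.106 to 0.441). The NLRC5 intervals overlapped, which is not itself a test of a difference, and no library had more than 5 reads of NLRC5. In a fit without the filter, limma gave RBMXL3 against WT a log2 change of 0.15 for NLRC5 (unadjusted p 0.038, adjusted p 0.181), 0.03 for PSMB8 (adjusted p 0.781) and 0.16 for TAP1 (adjusted p 0.690).

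Of the 9 members, 6 passed the filter on low values: HLA-B, HLA-C, HLA-E, B2M, TAP2 and TAPBP. Against WT, 3 of these 6 rose and none fell, beside 29.9% of all tested genes called in either direction, 14.6% higher and 15.3% lower. Against GFP, limma called 0 of 6, beside 20.9% of all tested genes (10.5% higher and 10.4% lower), and 2 had an unadjusted p under 0.05. No member was called against both controls, beside 13.7% of all genes (6.88% higher and 6.86% lower). In GFP against WT 1 of 6 rose and none fell, beside 3.67% of all genes (1.76% higher and 1.91% lower), and 5 had an unadjusted p under 0.05. The median log2 change of the 6 was 0.35 in RBMXL3 against WT, 0.16 in RBMXL3 against GFP and 0.32 in GFP against WT, beside all-gene medians of -0.01, 0.00 and -0.01. The 3 comparisons share libraries, so these medians are not independent of each other.

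Both RBMXL3 libraries lay above all 4 controls in 3 of the 6 tested members, HLA-B, HLA-C and HLA-E, beside 22.5% of all tested genes. The same 3 stepped from WT to GFP to RBMXL3 without overlap, beside 7.16%. Both GFP libraries lay above both WT libraries in 5 of the 6, beside 24.4%, the exception being TAP2.

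**Figure D2:**
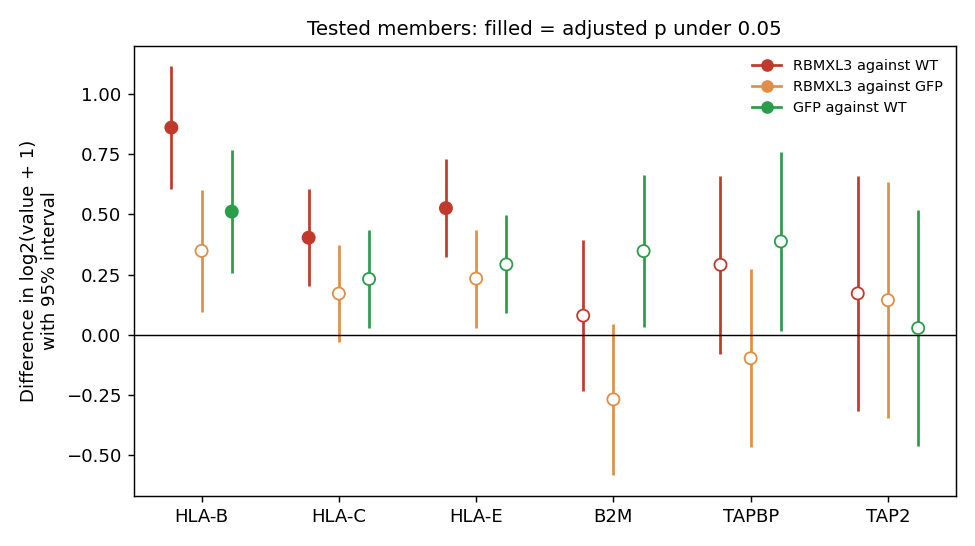
Difference in log2(value + 1) for the 6 tested members in the 3 comparisons, with 95% intervals; filled points passed an adjusted p of 0.05. HLA-B, HLA-C and HLA-E are filled in RBMXL3 against WT, HLA-B alone is filled in GFP against WT, and no point is filled in RBMXL3 against GFP.

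Levels between genes were compared in TPM, the transcript abundance that Salmon scales for length, summed over the transcripts of a gene. HLA-C was the most abundant member, at 111 ± 1.71 TPM (SD, n = 2) in WT, 117 ± 3.71 with GFP and 150 ± 4.59 with RBMXL3. HLA-E followed at 42.7 ± 0.546, 46.7 ± 1.15 and 66.5 ± 0.242 TPM. HLA-B stood at 22.9 ± 0.968, 30.6 ± 3.73 and 40.4 ± 0.580 TPM. The next place was held by B2M, at 9.46 ± 0.147, 12.2 ± 0.563 and 11.5 ± 0.242 TPM. TAPBP came after it, at 1.82 TPM in WT, 2.67 ± 0.888 in GFP and 2.52 ± 0.0244 in RBMXL3. These 5 kept the same order in all groups, with no overlap between neighbours.

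TAP1, TAP2, NLRC5 and PSMB8 were all under 1 TPM in every library. TAP1 and TAP2 overlapped in each group and cannot be ordered. NLRC5 was 0.0398 ± 0.00302 TPM in WT, 0.184 ± 0.131 in GFP and 0.446 ± 0.262 in RBMXL3. The lowest RBMXL3 value of NLRC5 (0.261) was below the highest GFP value (0.276). TAP1 was listed at 0 TPM in the first RBMXL3 library, where the gene table held 10 reads.

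**Figure D3:**
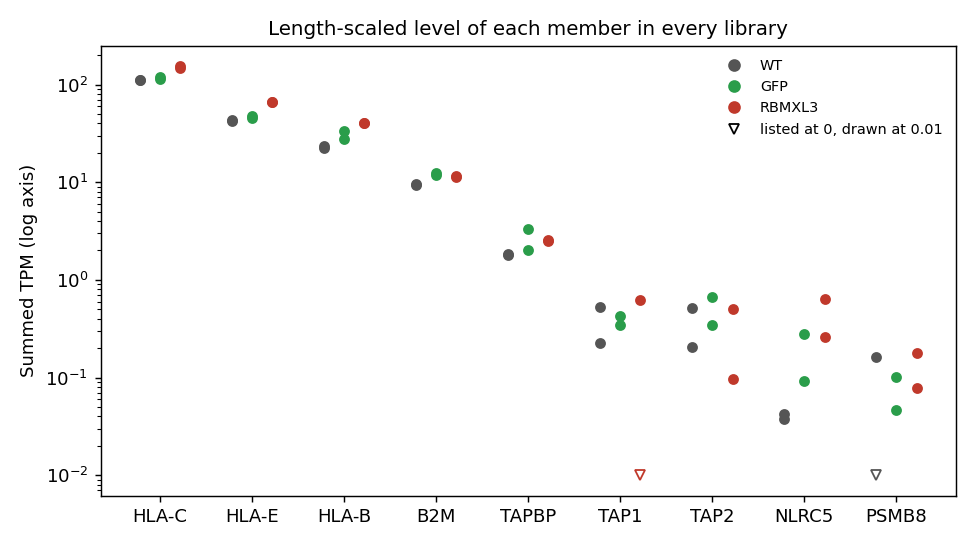
Summed TPM of each member (log axis) in the 2 libraries of WT, GFP and RBMXL3, with members ordered by level and open triangles for values listed at 0. The 3 heavy chains and B2M lie at 9.36 TPM or above in every library, and TAP1, TAP2, NLRC5 and PSMB8 lie below 1.

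The light chain was the scarcer partner at the RNA level. Summed TPM of HLA-B, HLA-C and HLA-E came to 175 and 179 in WT, 200.2 and 188 with GFP and 254 and 260.1 with RBMXL3. Divided by the TPM of B2M this gave ratios of 18.2 and 19.1 in WT, 17.0 and 15.0 with GFP and 21.7 and 22.9 with RBMXL3. The ratio was highest in both RBMXL3 libraries, with no test run on it. HLA-B took 12.9 ± 0.312% of that summed TPM in WT, 15.7 ± 1.23% in GFP and 15.7 ± 0.486% in RBMXL3. HLA-E took 24.1 ± 0.131%, 24.1 ± 0.473% and 25.9 ± 0.334%. HLA-C took 62.9 ± 0.181%, 60.2 ± 0.753% and 58.4 ± 0.820%, so it was the largest of the 3 in each group.

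Heavy chain genes resemble each other, and reads can be split between them. Of the 31-base words in the main transcript, 15.6% in HLA-B, 20.2% in HLA-C and 11.5% in HLA-E also occurred in another gene. HLA-B shared 10.8% of its words with HLA-C, and HLA-C shared 11.4% of its words with HLA-B. B2M shared none. A gene on the opposite strand, ENSG00000271581, covers 17.8% of the exon bases of HLA-B, and PSMB8-AS1 covers 9.49% of those of TAP1 and 20.6% of those of PSMB8. The strand setting of the counting is not given in the sources used here, so the values of these 3 genes are uncertain to that extent.

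In RBMXL3 the main coding transcript of each heavy chain was higher than in all 4 controls, while the step from WT to GFP was less regular. HLA-B-249 went from 18.6 ± 1.41 TPM in WT to 21.7 ± 1.88 in GFP and 32.9 ± 2.15 in RBMXL3. HLA-C-201 was at 103 ± 0.693, 108 ± 7.93 and 140 ± 0.299 TPM, and its GFP libraries (113 and 102) spanned those of WT. HLA-E-201 was at 40.1, 44.4 and 61.4 TPM on average. For B2M-215, the main light chain transcript, the means were 9.19, 11.9 and 10.0 TPM, which is the order of its gene-level reads.

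Minor transcripts were more erratic. HLA-C-207, a form with a retained intron, was listed at 0 in all 4 controls and at 2.01 and 1.51 TPM in RBMXL3. HLA-B-257, a fragment of 147 bases, was at 12.8 TPM in the first GFP library and 4.35 in the second, against a mean of 4.13 in WT, so it made up the larger part of the HLA-B difference in TPM from WT to GFP. B2M-211 appeared in the first RBMXL3 library alone, at 3.05 TPM.

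Transcript usage could be tested in HLA-B, HLA-C and HLA-E, and limma's diffSplice called 0 of these 3 in each comparison. Over all 8875 genes tested, 12% were called in RBMXL3 against GFP, 12% in RBMXL3 against WT and 1.71% in GFP against WT. HLA-C had an unadjusted p of 0.0125 (adjusted p 0.0817) against GFP and 0.0491 (adjusted p 0.204) against WT. HLA-B and HLA-E had none under 0.05, and a limma test of transcript shares also called 0 of the 3 members.

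The non-classical heavy chain genes HLA-F and HLA-G had few reads. HLA-G, a heavy chain best known from placental trophoblast, was at means of 5.48 normalised reads in WT, 24.6 in GFP and 21.4 in RBMXL3. It had 6 and 7 recovered reads in WT. It passed the filter only through the first GFP library (25.9) and the first RBMXL3 library (25.7). Its calls against WT (limma adjusted p 0.0493 for GFP and 0.0236 for RBMXL3) thus depend on the groups where it was high and carry no weight here. Words that HLA-G shares with other genes were not measured. HLA-F, at means of 12.2, 15.4 and 24.5, passed in no comparison.

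Of 12 genes for peptide supply, 9 passed the filter. For this and the following lists, the shares called over all tested genes were 20.9% against GFP, 29.9% against WT and 3.67% in GFP against WT. Against GFP 3 fell and none rose: PSMB5 and PSMB7, catalytic subunits of the constitutive proteasome, by 0.34 and 0.65 on the log2 scale (limma adjusted p 0.0300 and 0.00165), and PSME3, a nuclear proteasome activator, by 0.31 (adjusted p 0.0402). PSMB7 had 4773 and 4116 normalised reads in GFP and 2861 and 2775 in RBMXL3, below its 3297 and 3611 in WT. Against WT 4 fell and none rose, among them ERAP1, the aminopeptidase that trims peptides in the endoplasmic reticulum, by 0.60 (limma adjusted p 0.00343). The others were PSME3, TPP2 and LNPEP, which fell by 0.50, 0.43 and 0.50. In summed TPM the all-gene median log2 change against GFP was 0.13. On that scale PSME3 was at 119 and 135 in RBMXL3 and 113 and 109 in GFP, the opposite direction. Its WT libraries, at 136 and 122 TPM, overlapped those of RBMXL3. The PSMB5 libraries of RBMXL3 and GFP also overlapped in TPM (148 and 154 against 157 and 148). Against WT the log2 change of PSMB5 was 0.03 (limma adjusted p 0.845). In GFP against WT limma called 0 of the 9, with 6 at an unadjusted p under 0.05. The list's median log2 change was -0.19 against GFP and -0.29 against WT, and 0.21 in GFP against WT.

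PSMB8 and PSMB9, catalytic subunits of the immunoproteasome, were at or near 0 in all 3 groups. PSMB8 lay between 0 and 0.180 TPM and PSMB9 between 0 and 0.140 TPM, with 1, 2 and 1 reads of PSMB9 in WT, GFP and RBMXL3. PSMB10, the third interferon-induced catalytic subunit, was at 14.2 and 19.7 TPM in WT, 24.8 and 26.9 with GFP and 24.0 and 26.5 with RBMXL3. The gene table held 12 to 32 reads of PSMB10 per library, fewer than of B2M, whose TPM was not higher than 12.6, so the 2 tables differ for PSMB10 and it did not pass the filter. The constitutive counterparts PSMB5, PSMB6 and PSMB7 summed to 559 ± 34.5, 630 ± 25.0 and 603 ± 22.5 TPM.

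**Figure D4:**
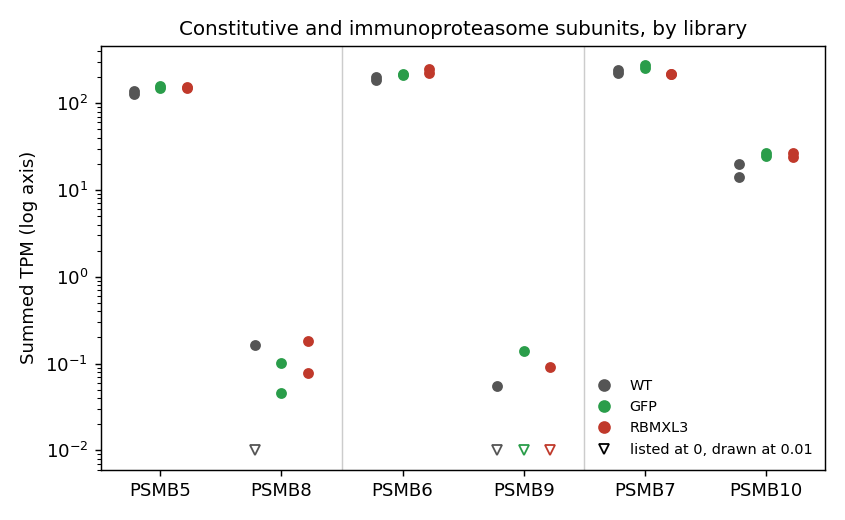
Summed TPM (log axis) of the 3 constitutive catalytic proteasome subunits, each beside its interferon-induced counterpart, in the 2 libraries of each group; open triangles are values listed at 0. PSMB8 and PSMB9 are at or below 0.180 TPM in every library, PSMB10 is at 14.2 to 26.9 TPM, and the constitutive subunits are at 128 TPM or more.

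Of 6 genes for assembly in the endoplasmic reticulum, 5 passed the filter, 1 fell and none rose against GFP, and 2 fell and none rose against WT. CALR (calreticulin, a chaperone of the loading complex) fell by 0.42 against GFP (limma adjusted p 0.0358). PDIA3, the thiol oxidoreductase of that complex, and the glucosyltransferase UGGT1 fell by 0.46 and 0.40 against WT (limma adjusted p 0.0212 and 0.00695). In TPM the PDIA3 libraries of RBMXL3 (10.9 and 12.8) lay within those of WT (13.8 and 8.83), a low TPM beside its 16684.5 to 25789 normalised reads, so the 2 tables differ for PDIA3. The GFP and RBMXL3 libraries of CALR also overlapped in TPM. In GFP against WT limma called 0 of the 5, with 1 at an unadjusted p under 0.05. The median log2 change was -0.24 against GFP and -0.28 against WT.

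Of 20 genes for class I transcription and interferon signalling, 18 passed the filter, and none rose in any comparison. NFYA, a subunit of the CCAAT-binding factor NF-Y, had 1546 and 1392 normalised reads in WT, 1427 and 1436 with GFP and 1103 and 990 with RBMXL3. It fell by 0.44 against GFP (limma adjusted p 0.0113) and by 0.48 against WT (adjusted p 0.005). In TPM the NFYA libraries of RBMXL3 (18.4 and 17.8) overlapped those of GFP (26.4 and 18.1) and lay below those of WT (21.0 and 22.1). SOCS1, an inhibitor of interferon signalling, fell against GFP by 0.54 but not against WT (log2 change -0.02, limma adjusted p 0.936). SOCS1 had 270 and 283 normalised reads in WT, 346 and 480 with GFP and 281 and 264 with RBMXL3. Against WT 6 of the 18 fell: NFYA, NFYB, JAK1, JAK2, NFKB1 and STAT2. In TPM the RBMXL3 and WT libraries of JAK1 and STAT2 overlapped. JAK2, an interferon receptor kinase, was the 1 gene that fell in GFP against WT, by 0.72 (limma adjusted p 0.0418).

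IRF1, an interferon-induced activator of class I genes, was at means of 36.7, 30.8 and 20.7 (limma adjusted p 0.0702 against WT). RFX5, part of the complex through which NLRC5 acts, was at means of 554, 631 and 644 and passed in no comparison. Over all 72 pathway genes other than the members, 47 were tested. Against GFP 0 rose and 9 fell, beside 10.5% of all tested genes called higher and 10.4% lower. The number called against GFP is near the 20.9% of all tested genes called in either direction. Against WT 4 rose and 14 fell, beside 14.6% higher and 15.3% lower. In GFP against WT 2 rose and 1 fell, beside 1.76% higher and 1.91% lower. HLA-G is among the genes that rose.

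The genes whose pattern over the 6 libraries was most like the mean profile of the 6 tested members were NKAIN4, ACVRL1, RGMA, TYMSOS and MGMT. Pearson's r with that profile was 0.994, 0.993, 0.989, 0.987 and 0.987 on log2 values, the highest of 7418 genes compared. NKAIN4 had 193 and 218 normalised reads in WT, 333 and 380.4 with GFP and 407 and 397 with RBMXL3. With 6 libraries that share group structure and depth, these values are a description of likeness only.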

How the data were processed

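The gene table holds, as signal values, read counts that the authors divided by 1 size factor per library: 100% of its 145320 nonzero values came out as whole reads (tolerance 0.001). The deposited transcript table holds TPM. Trim Galore 0.6.10, STAR 2.7.11a, DESeq2 and Salmon 1.10.2 and the builds GRCh38 and hg38 are named in the submitters' processing notes, which give no role; the annotation release and strand setting are not given in the sources used here. The libraries were made with a stranded mRNA kit, per the labels' protocols.

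Gene values were divided by a common 23.9, the 14292 genes that reached 1 in 2 or more libraries were used, and log2(value + 1) was fitted with limma 3.58.1 (R 4.3.3, trend, two-sided, 6 libraries in 1 fit), with Benjamini-Hochberg adjustment over all genes tested and a threshold of 0.05. The added 1 understates changes of low genes. Transcript usage was tested with diffSplice on log2(TPM + 1), over transcripts of at least 1 TPM in at least 2 libraries. Of 251955 transcripts, 79.9% matched a gene in GENCODE 29 (GRCh38), with 94.6 to 95.0% of the TPM; gene coordinates come from it. edgeR 4.0.16 and DESeq2 1.42.0 on the recovered reads, other filters, pseudocounts and scalings, summed TPM, a replicate block and leaving out each library were alternatives. Scripts were tested on simulated data. The 9 members, all named whatever their test, and the other lists were chosen with earlier results of these data known. By the labels, same-numbered libraries shared a number only. Some genes of the pathway and marker lists are not reported here.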

Additional observations from a re-analysis of the deposited data

How the results depend on the processing

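Of the alternative values of single genes, 274 kept their direction and side of the threshold, 8 became called, 10 lost their call and 8 changed sign. In RBMXL3 against GFP the count of members called went from 0 to 1 with a minimum mean of 5, robust moderation and edgeR (HLA-B, adjusted p 0.0454, 0.0485 and 0.04996), with summed TPM (HLA-E) and in 0 to 1 members over the left-out libraries; calls against both controls moved likewise, from 0 to 1. In RBMXL3 against WT the count of 3 became 0 with a required log2 change of 1, and 2 to 3 over the left-out libraries. In GFP against WT the count of 1 became 0 with no filter, only the 4 libraries compared, the replicate block, summed TPM or a required log2 change of 1, and 0 to 3 over the left-out libraries: 0 without either WT or either RBMXL3 library, 2 without GFP replicate 1 (HLA-B and TAPBP) and 3 without GFP replicate 2 (HLA-B, HLA-C and HLA-E). Transcript usage against GFP went from 0 to 1 with a pseudocount of 0.1 (HLA-C), and 0 to 1 over the left-out libraries (HLA-B without GFP replicate 2). The cause was not tested.

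With the replicate number as a block, HLA-B in GFP against WT had an adjusted p of 0.0719; no other count of members called changed. Differences between same-numbered libraries correlated at -0.156, 0.0337 and -0.0941, so the numbers did not pair them.

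Values that changed sign, all uncalled, were B2M in RBMXL3 against WT (-0.0054 with quantile scaling), TAP2 in RBMXL3 against WT (-0.21 without WT replicate 1, up to 0.55 without WT replicate 2), TAP2 in GFP against WT (-0.015 with quantile scaling, -0.038 with edgeR, -0.037 with DESeq2, -0.35 without WT replicate 1 but 0.41 without WT replicate 2, -0.023 without GFP replicate 2) and TAPBP in RBMXL3 against GFP (0.13 without GFP replicate 2, -0.32 without GFP replicate 1). Depth limits TAP1, NLRC5 and PSMB8: the 3 reads taken as the floor equal 2.52 to 3.86 normalised reads per library. A library left alone in its group is assumed to vary like the others.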

Other observations

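MHC class II genes, which are usually expressed by professional antigen-presenting cells, gave an uneven set of values. HLA-DQB1, a beta chain, had 2895 and 2852 normalised reads in WT, 2561 and 2381 with GFP and 2230 and 2159 with RBMXL3. HLA-DPB1, another beta chain, had 1320 and 1264 in WT, 1374 and 1142 with GFP and 787 and 751 with RBMXL3. HLA-DQA1, the alpha chain that pairs with the HLA-DQB1 product, had 1 read in 1 GFP library and 0 in the other 5. HLA-DRA had at most 4 reads in any library, the invariant chain CD74 at most 6, and the class II coactivator CIITA 1 to 5. Near-identical copies in the class II families make these counts uncertain, and the part of that in the values was not tested.

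HLA-DPB1 fell in RBMXL3 against GFP (log2 change -0.69, limma adjusted p 0.0018) and against WT (-0.73, adjusted p 0.000669), with both RBMXL3 libraries below all 4 controls. HLA-DQB1 fell against WT by 0.39 (limma adjusted p 0.0092), and HLA-DRB1 fell against GFP by 0.53 (adjusted p 0.0209). In TPM the fall of HLA-DRB1 against GFP was smaller, from 15.6 and 15.4 in GFP to 14.4 in both RBMXL3 libraries. On that scale RBMXL3 lay above WT (12.6 and 12.4). Of 12 class II genes, 4 passed the filter, and none rose. Beside them, 20.9% of all tested genes were called against GFP and 29.9% against WT.

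Of 12 class I-like molecules and stress ligands, 5 passed the filter, and the same shares over all tested genes apply. FCGRT, the neonatal Fc receptor heavy chain, which also pairs with beta-2-microglobulin, rose against WT by 0.61 (limma adjusted p 0.00901). ULBP1, a ligand of the activating receptor NKG2D, rose against WT by 0.69 (limma adjusted p 0.00533), from 744 and 538 normalised reads to 1163 and 923. MICA, another NKG2D ligand, fell against GFP by 0.50 (limma adjusted p 0.0283). In GFP against WT limma called 0 of the 5, with 0 at an unadjusted p under 0.05. Of 7 genes of the receptor side and checkpoint, 3 passed the filter and limma called 0 in each comparison, with 0 at an unadjusted p under 0.05.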
